A study of Mus musculus with 6 samples.

Results

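Mast cells and basophils are rare granulocytes that carry the high-affinity receptor for IgE and store histamine and proteases in their granules. Both arise in the marrow from progenitors that express c-KIT and GATA2, and several of their granule genes are already transcribed in such progenitors. The 8 genes described here were chosen by mouse symbol as markers of these cells, with earlier results of these data known. They encode the granule proteases Cpa3, Mcpt8, Prss34 and Cma1, the IgE receptor chains Fcer1a and Ms4a2, the IL-33 receptor Il1rl1 (ST2) and the histamine-forming enzyme Hdc. All 8 were found among the 55487 genes of the count files, and all 8 passed the low-count filter that left 15691 genes for testing.

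RNA was sequenced from lineage-negative, c-KIT-positive, SCA1-positive (LSK) cells of the bone marrow, which include stem cells and early multipotent progenitors of blood. The BrmKO group was 3 mice homozygous for an inactivated Brm gene (now named Smarca2), which encodes a motor subunit of SWI/SNF, complexes that remodel chromatin, and the WT group was 3 wild-type mice. Both groups are labelled with strain background C56Bl/6. The sources used here do not give the age or sex of the mice or how the mutation was made. A direct effect in LSK cells and an effect of other cells of the mutant marrow cannot be told apart.

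Libraries held 29.18 to 33.29 M (mega) reads in genes in BrmKO and 28.01 to 36.46 M in WT. Smarca2 had 805, 761 and 958 reads in BrmKO libraries, against 6284, 6932 and 4270 in WT libraries (log2 fold change -2.72 ± 0.13 SE, edgeR adjusted p = 2.97e-05). The gate genes Kit and Cd34 were abundant in both genotypes, at 976 ± 27.5 and 1047 ± 17.7 CPM (reads per M reads in genes, scaled by TMM) in BrmKO and 940 ± 91.0 and 996 ± 32.8 CPM in WT (SD, n = 3). Ly6a, which encodes SCA1, stood at 30.5 ± 4.84 CPM in BrmKO and 24.7 ± 6.19 CPM in WT. In the comparison of BrmKO with WT, 22 of 15691 genes passed an adjusted p of 0.05 in edgeR, 13 higher and 9 lower. Leaving out BrmKO replicate 1 gave 9 genes. Leaving out WT replicate 1 or 2 gave 7 or 6, and leaving out WT replicate 3 gave 36.

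Transcripts of both cell types were present in LSK RNA, with those of the shared and basophil proteases far above those of the mast cell chymase. On a per-length scale (CPM per kb of exon), Cpa3 was highest, at 54.7 ± 11.4 in BrmKO and 85.1 ± 4.49 in WT (SD, n = 3). Cpa3 is a carboxypeptidase of mast cell granules that basophils and their progenitors also express. Mcpt8 and Prss34, serine proteases used as basophil markers in the mouse, followed at 24.0 ± 2.60 and 18.1 ± 2.33 CPM per kb in BrmKO and 24.8 ± 1.36 and 23.5 ± 2.34 in WT. Hdc, histidine decarboxylase, stood at 7.58 ± 1.65 CPM per kb in BrmKO and 6.92 ± 0.555 in WT. Ms4a2, Il1rl1, Fcer1a and Cma1 lay lowest, between 2.37 and 3.25 CPM per kb in BrmKO and between 1.47 and 4.64 in WT. Within the WT order the 3 neighbouring pairs Mcpt8 and Prss34, Ms4a2 and Il1rl1, and Fcer1a and Cma1 overlapped between libraries, and the other 4 neighbouring pairs did not. In bulk RNA, a few cells with a high level and many cells with a low level of these transcripts cannot be told apart.

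None of the 8 genes passed over all genes in edgeR (0 of 8, against 0.14% of all genes tested, 0.0829% higher and 0.0574% lower). Unadjusted p was under 0.05 for 3 of 8 genes, Cpa3, Ms4a2 and Prss34, all lower in BrmKO. Over all genes tested 5.85% had such a p, 3.14% with BrmKO higher and 2.71% with BrmKO lower. The groups did not overlap for 3 of 8, 2 lower and 1 higher, where 11.1% of all genes did not overlap. Of the 8 genes, 3 lay above 0 and 5 below, with a median log2 fold change of -0.19, beside a median of -0.01 and 48.8% above 0 over all genes tested. With DESeq2, 1 of the 8 passed, Cpa3, where 0.711% of genes with an adjusted p passed. With limma-voom 0 of 8 passed.

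**Figure D1:**
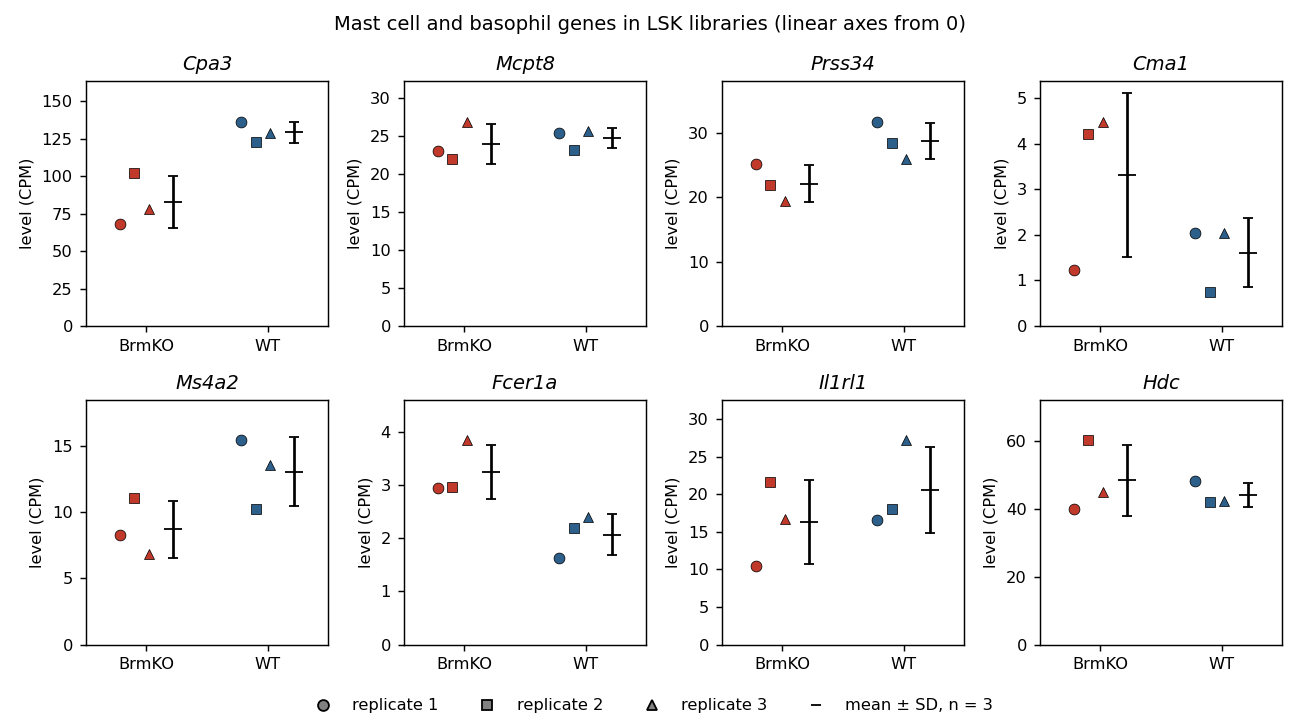
Level in CPM (linear axes from 0) of each of the 8 genes in the 3 BrmKO and 3 WT libraries, with marker shapes for replicate numbers and mean ± SD beside the points. Cpa3 and Prss34 lie lower in every BrmKO library than in any WT library, Fcer1a lies higher, and the genotypes overlap for the other 5 genes.

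Cpa3 had the smallest p of the 8 genes and ranked 78th by p among all 15691. It had 2044, 2931 and 2694 reads in BrmKO libraries, against 4929, 3982 and 3658 reads in WT libraries. Scaled to library size these were 68.3, 102 and 78.3 CPM in BrmKO and 136, 122 and 129 CPM in WT. All BrmKO libraries lay below all WT libraries, and the WT libraries were close together. The log2 fold change was -0.64 ± 0.14 (95% interval -0.95 to -0.33), that is 64.2% of the WT level, with an unadjusted p of 0.00109 and an adjusted p of 0.218 in edgeR. The adjusted p was 0.00412 with DESeq2 and 0.0431 in edgeR with no low-count filter, so the call for Cpa3 depended on the test and on the filter. Its log2 fold change lay between -0.82 and -0.51 with any single library left out (adjusted p = 0.0722 to 0.769 in edgeR).

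Prss34, the other protease that lay apart, had 749, 626 and 666 reads in BrmKO libraries and 1146, 924 and 738 in WT libraries. In CPM these were 25.0, 21.8 and 19.4 in BrmKO, against 31.7, 28.4 and 26.0 in WT, so the groups were apart by less than 1 CPM at their nearest libraries. Groups that did not overlap, with BrmKO lower, were found for 5.37% of all genes tested. The log2 fold change was -0.38 ± 0.14 (edgeR unadjusted p = 0.0226, adjusted p = 0.746).

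Mcpt8, the second basophil protease, had nearly equal means in the genotypes. It had 687, 630 and 924 reads in BrmKO libraries and 918, 754 and 731 in WT libraries, or 23.0, 21.9 and 26.9 CPM in BrmKO and 25.4, 23.2 and 25.7 CPM in WT. The highest and the lowest of the 6 values were both in BrmKO. In edgeR this gave a log2 fold change of -0.05 ± 0.13, and its 95% interval ran from -0.33 to 0.24 (edgeR adjusted p = 0.999).

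Cma1, the chymase of connective-tissue mast cells, had the widest spread. It had 37, 121 and 154 reads in BrmKO libraries, against 74, 24 and 58 in WT libraries. BrmKO replicates 2 and 3 lay above every WT library, while BrmKO replicate 1 lay below WT replicates 1 and 3. Means were 3.31 ± 1.80 CPM in BrmKO and 1.61 ± 0.752 CPM in WT, with a log2 fold change of 1.04 ± 0.54 (95% interval -0.17 to 2.25, edgeR adjusted p = 0.902). The SD of its log2 level was 1.002 within BrmKO and 0.78 within WT, values that 4.12% and 7.99% of all genes tested reached.

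The chains of the IgE receptor lay in opposite directions. Fcer1a encodes the alpha chain that binds IgE, and Ms4a2 the beta chain that amplifies the signal. Ms4a2 had 248, 317 and 234 reads in BrmKO libraries and 558, 332 and 385 in WT libraries, or 8.29, 11.04 and 6.80 CPM in BrmKO and 15.4, 10.2 and 13.5 CPM in WT. BrmKO replicate 2 lay above WT replicate 2, so the groups overlapped. Its log2 fold change was -0.58 ± 0.23 (edgeR unadjusted p = 0.0301, adjusted p = 0.788).

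Fcer1a was scarcer, with 88, 85 and 132 reads in BrmKO libraries against 59, 71 and 68 in WT libraries. In CPM these were 2.94, 2.96 and 3.84 in BrmKO and 1.63, 2.19 and 2.39 in WT, and every BrmKO value lay above every WT value, as in 5.69% of all genes tested. The log2 fold change was 0.65 ± 0.30 (95% interval -0.01 to 1.32, edgeR unadjusted p = 0.0539, adjusted p = 0.841). The third chain, Fcer1g, is shared with other Fc receptors and stood at 40.9 ± 3.68 CPM in BrmKO and 49.9 ± 3.37 CPM in WT (log2 fold change -0.29 ± 0.11, adjusted p = 0.748).

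Il1rl1 encodes ST2, the receptor through which IL-33 activates mast cells and basophils. It had 313, 623 and 577 reads in BrmKO libraries and 602, 589 and 774 in WT libraries, or 10.5, 21.7 and 16.8 CPM in BrmKO and 16.6, 18.1 and 27.2 CPM in WT. BrmKO replicate 1 was lowest, WT replicate 3 was highest, and the other 4 libraries were intermixed. Il1rl1 thus had a log2 fold change of -0.34 ± 0.27 (95% interval -0.95 to 0.27, edgeR adjusted p = 0.999), which lay at -0.10 without BrmKO replicate 1 and at -0.09 without WT replicate 3.

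Hdc makes histamine from histidine and is also transcribed in myeloid-biased stem and progenitor cells of the mouse. It had 1195, 1728 and 1550 reads in BrmKO libraries and 1749, 1366 and 1203 in WT libraries, or 40.0, 60.2 and 45.1 CPM in BrmKO and 48.3, 42.0 and 42.3 CPM in WT. The lowest and the highest library were both BrmKO. Its log2 fold change was 0.13 ± 0.15 (95% interval -0.21 to 0.47, edgeR adjusted p = 0.999).

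**Figure D2:**
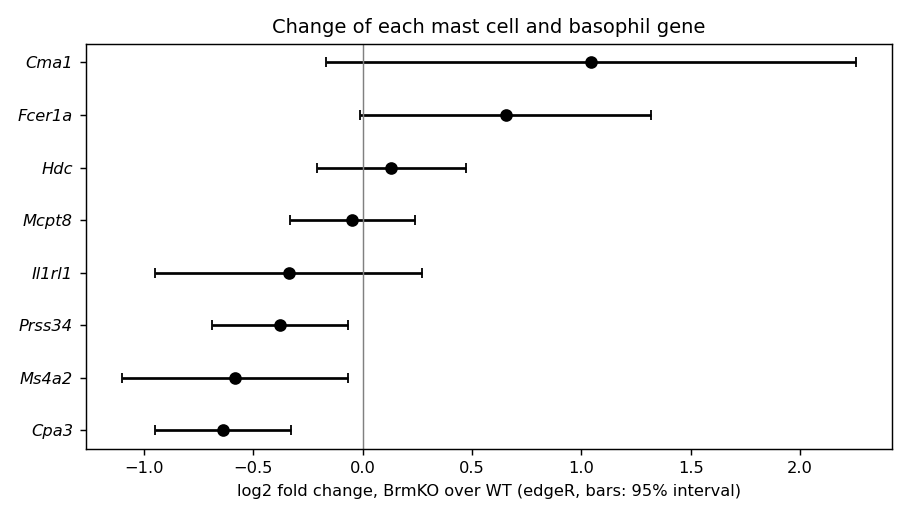
Log2 fold change of BrmKO over WT for each of the 8 genes (edgeR), with 95% intervals as bars, ordered by size. The unadjusted intervals of Cpa3, Ms4a2 and Prss34 lie below 0, those of the other 5 genes include 0, and no gene passed after adjustment over all genes.

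Promoter sequences are shown for 4 of the genes because mast cells and basophils need the transcription factor GATA2, and because Cpa3 and Ms4a2 had lower means in BrmKO and Fcer1a a higher one. The RefSeq windows (GRCm38.p6) run from 250 bases before to 50 after an annotated start, and all 8 genes matched, Il1rl1 with 2 windows 10059 bases apart. GATA motifs were searched as AGATAA or AGATAG and as TGATAA or TGATAG on both strands, and no matches in these windows overlapped. They were found in 8 of the 9 windows, those of 7 genes, where 29.8% of 32851 promoter windows of the same length hold at least 1. The 32851 windows were not matched to those of the 8 genes in base composition, so their shares are a rough background only. The window of Mcpt8 held no match. Capitals mark the matches in the sequences, which are given on the gene's strand.
Cpa3, chr3:20242132-20242431, minus strand: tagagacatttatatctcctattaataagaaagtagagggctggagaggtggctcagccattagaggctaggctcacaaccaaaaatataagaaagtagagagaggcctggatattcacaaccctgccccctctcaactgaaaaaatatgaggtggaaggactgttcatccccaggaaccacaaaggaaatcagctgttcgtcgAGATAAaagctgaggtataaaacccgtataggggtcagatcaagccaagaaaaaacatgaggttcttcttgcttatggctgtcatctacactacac
Ms4a2, chr19:11623670-11623969, minus strand: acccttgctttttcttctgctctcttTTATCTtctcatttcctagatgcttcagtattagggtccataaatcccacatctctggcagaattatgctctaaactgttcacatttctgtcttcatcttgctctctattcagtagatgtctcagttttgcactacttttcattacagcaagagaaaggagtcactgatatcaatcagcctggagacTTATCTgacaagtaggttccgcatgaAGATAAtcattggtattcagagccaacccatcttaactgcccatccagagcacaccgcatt
Fcer1a, chr1:173227180-173227479, minus strand: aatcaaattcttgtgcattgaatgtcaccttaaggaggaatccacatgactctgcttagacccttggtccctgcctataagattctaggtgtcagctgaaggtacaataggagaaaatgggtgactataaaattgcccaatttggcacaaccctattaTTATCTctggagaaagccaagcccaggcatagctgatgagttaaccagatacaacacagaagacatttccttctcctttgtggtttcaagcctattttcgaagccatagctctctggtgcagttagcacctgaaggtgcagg
Il1rl1, chr1:40429320-40429619, plus strand: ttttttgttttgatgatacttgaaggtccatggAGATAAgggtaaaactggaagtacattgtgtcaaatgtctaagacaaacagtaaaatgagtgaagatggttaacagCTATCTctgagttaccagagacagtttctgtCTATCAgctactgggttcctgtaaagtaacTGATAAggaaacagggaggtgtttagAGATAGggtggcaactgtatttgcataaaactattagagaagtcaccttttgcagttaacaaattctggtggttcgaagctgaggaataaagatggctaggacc

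In Cpa3 the single match began 46 bases before the start. Ms4a2 held 3 matches, beginning 224, 37 and 11 bases before the start, and Fcer1a held 1, at 92 bases. The upstream window of Il1rl1 held 5, beginning between 217 and 54 bases before the start, where 0.332% of all windows hold 4 or more. That window starts transcripts from the promoter known to be used in mast cells, and the downstream one held 1 match. The counts are for the gene as a whole, so use of either Il1rl1 promoter was not measured. Genes with a match lay on both sides of 0, with Fcer1a at 0.65 and Cpa3 at -0.64 (log2 fold change), and a match in the sequence says nothing of binding in these cells.

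Ratios of reads within a library do not depend on library scaling, and they set the genes against each other. Of the 28 pairs among the 8 genes, 10 had ratios that did not overlap between the genotypes, where 12.3% of all pairs of tested genes did. The pairs are not separate cases, since 5 of the 10 involved Fcer1a and 4 involved Cpa3, and no test was made over them. Cpa3 reads per Hdc read were 1.71, 1.70 and 1.74 in BrmKO libraries, against 2.82, 2.92 and 3.04 in WT libraries. The means were 1.71 ± 0.0214 in BrmKO and 2.92 ± 0.112 in WT (SD, n = 3). This gap was far wider than the spread in either group, although Cpa3 and Hdc levels each varied among BrmKO libraries. The pair is 1 of the 28 and was named after its values were seen. An SD over 3 libraries is itself imprecise, and the counting error of the reads was not set beside it.

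Cpa3 per Mcpt8 was 2.98, 4.65 and 2.92 in BrmKO libraries and 5.37, 5.28 and 5.004 in WT libraries. Ms4a2 per Fcer1a was 2.82, 3.73 and 1.77 in BrmKO libraries, against 9.46, 4.68 and 5.66 in WT libraries. Both ratios were thus lower in every BrmKO library than in any WT library. Cpa3 per Ms4a2 overlapped between the genotypes, at 9.67 ± 1.67 in BrmKO and 10.1 ± 1.66 in WT. The basophil proteases Mcpt8 and Prss34 overlapped as well, at 1.103 ± 0.250 Mcpt8 reads per Prss34 read in BrmKO and 0.869 ± 0.105 in WT.

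**Figure D3:**
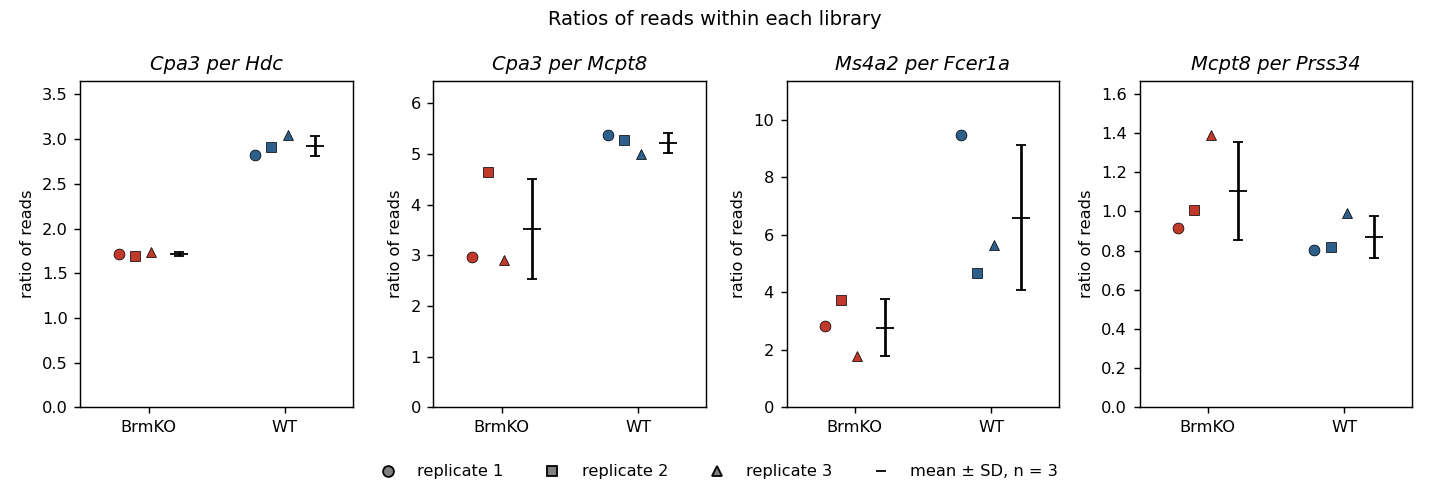
Ratio of reads of a pair of genes within each library (linear axes from 0), for 3 BrmKO and 3 WT libraries, with mean ± SD. Cpa3 per Hdc, Cpa3 per Mcpt8 and Ms4a2 per Fcer1a are lower in every BrmKO library than in any WT library, and Mcpt8 per Prss34 overlaps.

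Other genes of the mast cell and basophil programme were taken from 6 lists that together hold 90 genes, of which 76 passed the low-count filter. Not one of the 76 passed in edgeR, DESeq2 or limma-voom (0 of 76), and 9 had an edgeR p under 0.05 before adjustment, 2 higher and 7 lower, where 5.85% of all genes tested had such a p, 3.14% higher and 2.71% lower. Above 0 lay 26 and below 0 lay 50 of the 76, with a median log2 fold change of -0.06, where 48.8% of all genes tested lay above 0. Genotypes did not overlap for 11 of the 76 that were lower and 2 that were higher in BrmKO, against 5.37% lower and 5.69% higher of all genes tested. The lists are not limited to genes particular to mast cells and basophils. Kit, also a gate gene, stood at 107.5 and Plcg2 at 93.9 CPM per kb over the 6 libraries, beside 2.66 for Fcer1a and 2.26 for Cma1. How much of a list value came from mast cell or basophil progenitors cannot be told from bulk RNA.

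Among granule genes, 0 of 9 tested passed, 5 lay above 0 and 4 below. Ctsg, cathepsin G, which neutrophil progenitors also make, was the most abundant per length, at 419 ± 53.4 CPM per kb in BrmKO and 411 ± 54.9 CPM per kb in WT. Srgn, serglycin, the proteoglycan that holds proteases in granules, stood at 227 ± 13.4 CPM per kb in BrmKO and 253 ± 13.0 CPM per kb in WT. Ndst2, which sulphates the heparin of mast cell granules, had a log2 fold change of 0.03 ± 0.08. Gzmb, granzyme B, had the lowest log2 fold change of the list, at -0.45 ± 0.40. Tpsb2, a tryptase of mast cells, had the highest, at 2.55 ± 1.13 (edgeR unadjusted p = 0.0533, adjusted p = 0.841).

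Tpsb2 had 16, 145 and 140 reads in BrmKO libraries, against 17, 0 and 34 in WT libraries. As for Cma1, BrmKO replicates 2 and 3 were highest and WT replicate 2 lowest. Other chymases and tryptases of mature mast cells, chosen after their values were seen, were scarce. Mcpt4 had 11, 24 and 43 reads in BrmKO libraries and 6, 2 and 9 in WT libraries (log2 fold change 2.17 ± 0.72, edgeR unadjusted p = 0.0141, adjusted p = 0.664). Tpsab1 had 10, 4 and 3 reads in BrmKO libraries and 0 in every WT library. Pooled over the BrmKO libraries, this was 5.92-fold the level of 3 reads over the WT group. That value leaves out the counting error of the BrmKO reads and the spread between mice. Mcpt2 had 7, 0 and 16 reads in BrmKO libraries and 0, 6 and 3 in WT libraries. Tpsab1 and Mcpt2 did not pass the low-count filter and were not tested. The mucosal chymase Mcpt1 and Mcpt9 had 0 reads in all 6 libraries. A count of 0 has an upper limit of about 3 reads at 95% confidence, by counting error alone. Scaled to library size, 3 reads are 0.0872 to 0.104 CPM in BrmKO and 0.0828 to 0.105 CPM in WT.

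**Figure D4:**
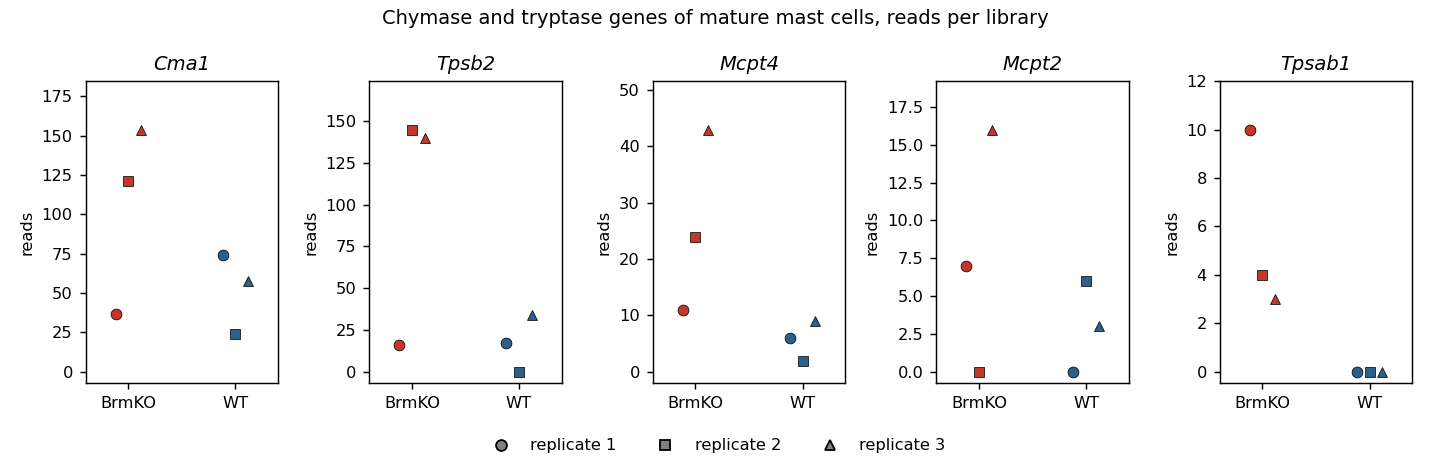
Reads per library (linear axes) of Cma1, Tpsb2, Mcpt4, Mcpt2 and Tpsab1 in 3 BrmKO and 3 WT libraries, with marker shapes for replicate numbers. Each has more reads in total in BrmKO, the genotypes overlap for Cma1, Tpsb2 and Mcpt2, and none of the 3 tested genes (Cma1, Tpsb2 and Mcpt4) passed.

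Genes for amines and lipid mediators gave 0 of 8 past the threshold, with 3 above 0 and 5 below. Slc18a2 encodes the transporter that loads histamine and serotonin into granules. It had 2652, 2497 and 2995 reads in BrmKO libraries and 4440, 5107 and 2887 in WT libraries, or 87.6 ± 0.933 CPM in BrmKO and 127 ± 28.1 CPM in WT. Every BrmKO library lay below every WT library, as in 5.37% of all genes tested (log2 fold change -0.54 ± 0.14, edgeR unadjusted p = 0.00392, adjusted p = 0.387). Slc18a2 lies on chromosome 19, as Smarca2 does, and a linked sequence difference carried with the mutant allele was not tested. Hpgds, the prostaglandin D2 synthase, had the lowest log2 fold change at -0.63 ± 0.29, and Ltc4s, the leukotriene C4 synthase, the highest at 0.43 ± 0.35. Alox5ap, Ptgs1 and Hnmt lay between -0.01 and 0.09.

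Of the genes through which the IgE receptor signals, 14 of 15 lay below 0, with a median of -0.09, and 0 of 15 passed. Over all genes tested 48.8% lay above 0. The genotypes did not overlap for 5 of the 15, all lower in BrmKO, where 5.37% of all genes tested were lower without overlap. The kinase Syk stood at 309 ± 6.89 CPM in BrmKO and 351 ± 22.7 CPM in WT (log2 fold change -0.18 ± 0.08), and the kinase Btk at 176 ± 3.76 CPM in BrmKO and 188 ± 2.75 CPM in WT. Plcg2 and the phosphatase gene Inpp5d, which limits mast cell activation, stood at -0.01 ± 0.12 and -0.05 ± 0.09 in log2 fold change. Grap2 was lowest at -0.60 ± 0.29 with 45 to 72 reads in BrmKO libraries and 79 to 100 in WT libraries. Rabgef1 alone lay above 0, at 0.12 ± 0.12.

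Receptors and signalling of IL-33 and growth factors gave 0 of 14 past the threshold, with 5 above 0 and 9 below. Kit, the stem cell factor receptor that mast cells retain, had a log2 fold change of 0.05 ± 0.10. Myd88 and Irak1, which act below ST2, stood at 0.03 ± 0.08 and -0.07 ± 0.11, and Stat5a and Stat5b, which act below the IL-3 receptor, at 0.03 ± 0.11 and -0.01 ± 0.09. Il7r was lowest at -0.72 ± 0.19 (edgeR unadjusted p = 0.00449, adjusted p = 0.432), and Csf2rb2, a beta chain for IL-3 in the mouse, highest at 0.37 ± 0.30.

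Transcription factors of the lineage gave 0 of 14 past the threshold, with 7 on each side of 0 and a median of 0.00. Gata2 had 11354, 11229 and 8413 reads in BrmKO libraries and 14227, 15291 and 7239 in WT libraries. Its lowest value was in replicate 3 of either genotype, so the spread within genotypes was wider than the difference between them (log2 fold change -0.14 ± 0.24). Gata1, which mast cells share with erythroid cells and megakaryocytes, had a log2 fold change of -0.09 ± 0.19, and its partner Zfpm1 of 0.01 ± 0.22. Spi1 and Irf8 stood at 0.01 ± 0.08 and -0.07 ± 0.14. Hes1 was lowest at -0.53 ± 0.44 and Id1 highest at 0.36 ± 0.42.

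Other surface and effector markers gave 0 of 16 past the threshold, with 5 above 0 and 11 below. Cd63, a granule membrane protein exposed on activated basophils, stood at 109 ± 6.30 CPM in BrmKO and 134 ± 5.47 CPM in WT. Its genotypes did not overlap, with BrmKO lower, as in 5.37% of all genes tested (log2 fold change -0.29 ± 0.08, edgeR unadjusted p = 0.00632, adjusted p = 0.504). Itgb7, the integrin chain that marks mast cell progenitors, stood at 80.0 ± 16.8 CPM in BrmKO and 85.4 ± 5.21 CPM in WT. Ifitm1, Gpr171 and Cd69 lay between -0.11 and 0.04. Il4 was lowest at -0.86 ± 0.42, with 23, 32 and 34 reads in BrmKO libraries and 39, 57 and 68 in WT libraries. Cyp11a1, a steroid-forming enzyme also found in mast cells, was highest at 1.67 ± 0.60 (edgeR unadjusted p = 0.0236, adjusted p = 0.746), with 158, 176 and 811 reads in BrmKO libraries and 78, 127 and 143 in WT libraries. BrmKO replicate 3 alone held most of its BrmKO reads.

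**Figure D5:**
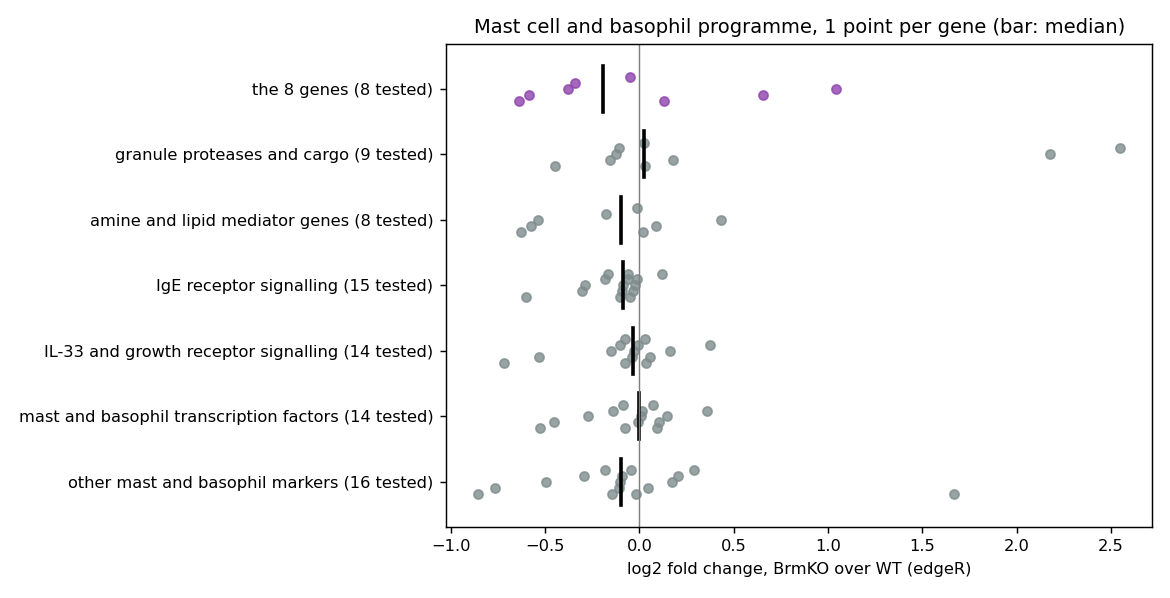
Log2 fold change of BrmKO over WT (edgeR) for every tested gene of the 8-gene set and of the 6 lists of the mast cell and basophil programme, with 1 point per gene and a bar at the list median. Medians lie between -0.19 and 0.03, and the points above 1.5 are Tpsb2, Mcpt4 and Cyp11a1.

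Markers of neighbouring lineages were set beside these values. The summed level of the 8 genes was 179, 246 and 202 CPM in BrmKO libraries and 277, 247 and 268 CPM in WT libraries, of which Cpa3 was the largest part. Megakaryocyte and platelet genes lay lower in BrmKO in 11 of 11 tested, with a median of -0.60 and 1, Pf4, past the threshold. Their summed level was 721 to 981 CPM in BrmKO and 1012 to 1352 CPM in WT. Over all genes tested 48.8% lay above 0, and 0.0574% passed with BrmKO lower. Like Cpa3, the megakaryocyte and platelet sum was lower in BrmKO, but it did not follow Cpa3 within a genotype. Among BrmKO libraries it was highest in replicate 1, at 981 CPM, where Cpa3 was lowest, at 68.3 CPM. Among WT libraries it was highest in replicate 2, at 1352 CPM, where Cpa3 was lowest, at 122 CPM. A part of these genes in the Cpa3 value was not tested. Monocyte and macrophage genes lay below 0 in 7 of 9 (median -0.33), with sums of 518 to 606 CPM in BrmKO and 584 to 701 CPM in WT that overlapped. Eosinophil markers lay above 0 in 3 of 5, with sums of 38.6 to 47.2 CPM in BrmKO and 30.5 to 49.6 CPM in WT. Neutrophil granule genes lay above 0 in 5 of 10, with sums of 4158 to 5342 CPM in BrmKO and 4280 to 4881 CPM in WT. Erythroid genes lay above 0 in 3 of 10 tested (median -0.06), with sums of 1546 to 2054 CPM in BrmKO and 1464 to 2139 CPM in WT. None of the marker genes of these 5 lists was at 0 reads in all libraries.

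Genes of most similar pattern were sought by the root mean square difference between log2 levels, each centred on its mean over the 6 libraries, among genes with a mean of at least 5 CPM. Fcer1a and Cma1 lay under this minimum and were not searched. Cpa3 lay nearest to Ccr2, a chemokine receptor of monocytes (0.0801 in log2 units, against a spread of 0.373 for Cpa3 itself), followed by the Y-linked Eif2s3y and by Nhsl2. Reads of Eif2s3y were detected in all 6 libraries. Ms4a2 lay nearest to Nhsl2 and Ccr2 (0.148 and 0.150), followed by Sec31b. Ccr2 stood at 17.2, 23.1 and 18.4 CPM in BrmKO libraries and 34.5, 26.6 and 29.5 CPM in WT libraries (log2 fold change -0.63, edgeR adjusted p = 0.328). Prss34 lay nearest to Pdxp, Rab10os and Jmjd6 (0.0423 to 0.0486), Mcpt8 to Prim1, Ankra2 and Ntan1 (0.00998 to 0.0230), Hdc to Reep6, Pgghg and Arl13b (0.0757 to 0.0771) and Il1rl1 to Aqp11, Zfp273 and Atp8a2 (0.157 to 0.180). With 6 libraries such likeness is a description of these libraries. None of the 6 genes searched was among the nearest 3 of another.

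The genes lie on 6 chromosomes (GRCm38). Ms4a2 (ENSMUSG00000024680, chromosome 19, 11615523 to 11623719, minus strand) is the one on the chromosome of Smarca2, 15.0 Mb away. Of the 14 other tested genes within 0.5 Mb of Ms4a2, 11 lay below 0, with a median log2 fold change of -0.23, and 0 passed. Over all genes tested, 48.8% lay above 0. These neighbours include Ms4a3, Ms4a4b, Ms4a4c, Ms4a6b, Ms4a6c and Ms4a6d, genes of the same family, so they are not separate cases. Unadjusted edgeR p was under 0.05 for 3 of the 14, against 5.85% of all genes tested. For Ms4a2, loss of BRM and any linked sequence difference carried with the mutant allele cannot be told apart. Cpa3 (ENSMUSG00000001865, chromosome 3, 20215620 to 20242181, minus strand) had 4 tested neighbours within 0.5 Mb, all below 0 with a median of -0.03. Fcer1a (ENSMUSG00000005339, chromosome 1, 173221284 to 173227214, minus strand) lies beside the interferon-inducible Ifi200 family, and its 8 tested neighbours lay above 0 in 4 and below in 4. Of these 8, 0 passed and 3 had an unadjusted edgeR p under 0.05, against 0 of the 4 neighbours of Cpa3.

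Cma1 (ENSMUSG00000022225, chromosome 14, 55941451 to 55944675, minus strand) and Mcpt8 (ENSMUSG00000022157, chromosome 14, 56082166 to 56085273, minus strand) belong to the chymase locus, which also holds Mcpt4, Ctsg and Gzmb. Log2 fold changes within this locus ran from 2.17 for Mcpt4 and 1.04 for Cma1 to 0.03 for Ctsg, -0.05 for Mcpt8 and -0.45 for Gzmb. Prss34 (ENSMUSG00000056399, chromosome 17, 25298394 to 25300165, plus strand) lies within 0.5 Mb of Tpsb2, at -0.38 and 2.55. Hdc (ENSMUSG00000027360, chromosome 2, 126593667 to 126619299, minus strand) and Il1rl1 (ENSMUSG00000026069, chromosome 1, 40429570 to 40465415, plus strand) had 12 and 10 tested neighbours, none of which passed. No near-identical copy was found for any of the 8 genes. A stretch of 27.1% of the Cma1 transcript matched Gm48934 at 96.9% identity, so reads from that stretch may be split or dropped.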

How the data were processed

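Bulk RNA of LSK cells was measured in 6 libraries, 3 BrmKO and 3 WT, each from a separate mouse. Per the labels' protocols, lineage-positive cells were depleted, LSK cells were sorted into lysis buffer, and polyadenylated RNA was made into SMART-Seq v4 libraries, which mark neither strand nor molecule, so floors reflect counting error alone. The authors deposited raw counts of reads per Ensembl gene, with no normalization. Per the submitters' processing notes, bcl2fastq, FastQC, STAR, HTSeq and DESeq2 were used with GRCm38. The sources used here give no versions and no strand setting. The 5 summary rows that name no gene were left out of library sizes (5.79% to 9.29% of reads outside genes, 6.23% to 6.47% ambiguous).

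Symbols, positions and exon lengths came from GENCODE M21 (GRCm38). BrmKO was compared with WT by edgeR 4.0.16 (R 4.3.3), with its quasi-likelihood test, TMM factors, filterByExpr, robust dispersion, no covariate and Benjamini-Hochberg adjustment over 15691 genes (threshold 0.05). SE is the log2 fold change over the root of F. DESeq2 1.42.0, limma-voom (limma 3.58.1), other factors, filters and left-out libraries were alternatives. The test was checked on simulated counts. It recovered 29.3% of 1.5-fold, 57.6% of 2-fold and 76.3% of 4-fold changes, with 8 false calls. A gene that did not pass may thus still have changed. All pairs of libraries differed beyond sampling noise, with chi-square values of 13.2 to 47.8 per degree of freedom. Copies were searched with minimap2 2.31 (95% identity over 50% of the transcript). Log2 SDs and pairwise ratios over all genes used a pseudocount of 0.1 CPM.

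The 8 genes and the lists were chosen with earlier results of these data known. Lists that set the genes in context held 12 erythroid genes (10 analysed here). B and T cell genes (7 tested, median -0.07), stromal and endothelial genes (10 tested, median -1.30) and LSK gate genes (6 tested, median 0.06) had no member past the threshold. By rule, the text names all 8 genes, Smarca2, and from each list of the programme the 5 most abundant per length, the extremes of log2 fold change and any that passed. Some of the most abundant are given by range, and some are left out for length. Other names were chosen after their values were seen.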

Additional observations from a re-analysis of the deposited data

How the results depend on the processing

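The number of genes that passed was 141 with DESeq2 and 58 with no low-count filter, against 22 in the reported fit, and 1 of the 8 genes, Cpa3, passed in each of these 2 alternatives (log2 fold change -0.64 in both). Leaving out single libraries gave 6 to 36 genes, 0 of the 8 genes and 0 of the 76 tested programme genes. The log2 fold change then ranged from -0.14 to 0.0092 for Mcpt8 and from -0.057 to 0.26 for Hdc, each with its sign turned without BrmKO replicate 2, and the signs of the other 6 genes held. In these fits Il1rl1 ranged from -0.60 to -0.09. Replicate numbers are shared by the genotypes. Deviations of same-numbered libraries correlated at 0.0518, 0.00775 and 0.194, and the numbers were not taken as pairs. By chi-square per degree of freedom, however, BrmKO replicate 3 and WT replicate 3 were nearest to each other, at 18.7. Against libraries of its own genotype, BrmKO replicate 3 stood at 28.9 and 32.0, and WT replicate 3 at 40.2 and 43.8. The source of this likeness was not tested. With the replicate number as a block, 25 genes passed and 0 of the 8. Without replicate 3 of both genotypes, the libraries with the most reads outside genes and an alternative chosen after seeing the data, 18 genes passed and 0 of the 8, and Il1rl1 stood at -0.11. Other factors, the stricter filter, limma-voom and non-robust dispersion gave 21 to 23 genes and 0 of the 8. The per-length order of the 8 genes was the same with the longest transcript as length. Of the 18 pairings of a gene with one of its nearest 3 (16 distinct genes), 13 were kept with a minimum of 1 CPM. With 156 to 312 reads per genotype, Fcer1a and Cma1 were the least precisely measured.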
